A study of Homo sapiens with 2 samples.

Results

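RUNX1, RUNX2, RUNX3, their partner CBFB, the co-repressor RUNX1T1, the repressors GFI1 and GFI1B and the factor MYB were followed in H1 cells, an established human embryonic stem cell line, as the cells were driven towards blood. These 8 genes were taken by NCBI gene number from the 18518 genes listed in at least 1 of 2 deposited tables. The data held 1 library from H1 cells labelled MEIS1-/- and 1 from wild-type H1 cells. In both cultures a first step of 2 days in activin A (40 ng/ml) with BMP4 (50 ng/ml) was followed by VEGF (40 ng/ml) with bFGF (50 ng/ml), and cells were taken at day 3, within the second step of 2 days. The labels did not give the deleted part of MEIS1, the number of clones or whether the cultures were independent. With 1 library per genotype there was no test between genotypes and no replicate check, so each comparison is one of these 2 libraries.

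RUNX proteins bind DNA through the Runt domain, and CBFB, which does not bind DNA itself, joins them as the second subunit of core binding factor and strengthens their hold on DNA. In the vertebrate embryo the first lasting blood stem cells bud from specialised endothelial cells, the haemogenic endothelium, and RUNX1 is required for that step. GFI1 and GFI1B are zinc finger repressors that act downstream of RUNX1 in mouse haemogenic endothelium, where they silence endothelial genes, and MYB maintains definitive blood progenitors. RUNX1T1, also called ETO, belongs to a family of co-repressors and is best known as the fusion partner of RUNX1 in acute myeloid leukaemia.

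RUNX1, GFI1, GFI1B and MYB were higher in the library labelled MEIS1 deleted, CBFB was slightly higher, and the counting intervals of RUNX2, RUNX3 and RUNX1T1 included no difference. A gene is called higher or lower here when the exact 95% interval of its ratio, which covers counting error only, excluded 1. By that rule 5 of the 8 members were higher and 0 lower, while 15.4% of the 14381 genes compared were higher and 14.7% lower. RUNX1, GFI1 and GFI1B, 3 members in all, were also at least 2-fold higher, as were 2.9% of the genes compared, and 2.95% were at least 2-fold lower. All 8 members had at least 10 counts in 1 library, the minimum for comparison, but GFI1B reached it only in the library labelled deleted. In RNA from whole cultures, more cells of a type and more RNA per cell cannot be told apart.

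The libraries held 5296397 counts for the one labelled deleted and 5202847 for wild type, rounded from estimated counts, over 17696 and 17562 listed genes. MEIS1 itself had 68 counts in the library labelled deleted and 89 in wild type, a ratio of 0.759 (0.543 to 1.05), so the level of MEIS1 did not check the genotype labels. Some mesoderm markers, such as HAND1 and KDR, were well expressed in both libraries, and others were scarce. HAND1, a factor of lateral and extraembryonic mesoderm, stood at 301 FPKM in the library labelled deleted and 254 FPKM in wild type, and KDR, the VEGF receptor of early mesoderm and endothelium, at 160 and 141 FPKM in the same order. FPKM is a level scaled for gene length and library depth. HAND1 and KDR lie outside the rule for named genes given below. Among the other mesoderm markers MESP1 had 1 count in the library labelled deleted and 5 in wild type, and EOMES had 211 and 867. Of 9 mesoderm markers compared, 4 were higher and 4 lower.

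RUNX1, gene 861 on chromosome 21, had 266 counts in the library labelled MEIS1 deleted and 109 counts in the wild-type library. The ratio was 2.40-fold (1.93 to 3.05). In FPKM its level was 8.20 in the library labelled deleted and 2.90 in wild type, which placed it above 57.6% of listed genes in the library labelled deleted and above 36.4% of them in wild type. RUNX2, which drives the formation of bone, had 31 counts in the library labelled deleted and 28 in wild type, a ratio of 1.09 (0.636 to 1.90). RUNX3, which acts in T lymphocytes and sensory neurons, had 15 counts in the library labelled deleted and 21 in wild type, a ratio of 0.720 (0.339 to 1.44). Neither interval of RUNX2 and RUNX3 reached the lower limit of that of RUNX1, although the upper limit for RUNX2 came close to it.

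RUNX1 made up most of the RUNX family transcript in both libraries, and more of it in the library labelled deleted. The summed level of RUNX1, RUNX2 and RUNX3 was 9.88 FPKM in the library labelled deleted and 4.81 FPKM in wild type. RUNX1 accounted for 83.0% of that sum in the library labelled deleted and for 60.3% in wild type. As a share of the family's counts, without length scaling, RUNX1 held 85.3% (exact 95% binomial interval 80.8 to 89.0) in the library labelled deleted and 69.0% (61.2 to 76.1) in wild type, and these intervals did not overlap. RUNX2 contributed 10.3% of the FPKM sum in the library labelled deleted and 20.2% in wild type, and RUNX3 contributed 6.68% and 19.5% in the same order.

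CBFB, gene 865 on chromosome 16, was by far the most abundant member, with 780 counts in the library labelled deleted and 684 in wild type. The ratio was 1.13-fold (1.02 to 1.25), close to the limit of a call. Its level of 46.4 FPKM in the library labelled deleted and 41.6 FPKM in wild type lay above 91.8% and 90.6% of listed genes. CBFB transcript therefore exceeded the RUNX1, RUNX2 and RUNX3 sum 4.70-fold in the library labelled deleted and 8.64-fold in wild type, on the FPKM scale. RUNX1T1, gene 862 on chromosome 8, had 135 counts in the library labelled deleted and 111 in wild type, a ratio of 1.20 (0.929 to 1.56). Its deposited counts of 135.34 and 111.47 were not whole, and how its reads were divided was not traced. The other 7 members had whole counts, within 0.005.

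GFI1, gene 2672 on chromosome 1, had 139 counts in the library labelled deleted and 53 in wild type, a ratio of 2.57-fold (1.88 to 3.63). GFI1B, its paralogue on chromosome 9 (gene 8328) and a regulator of red cells and platelets, had 14 counts in the library labelled deleted and was not listed in wild type. Against a limit of 3 counts for a gene with none in the wild-type library, GFI1B was at least 4.62-fold higher when the 14 counts are taken as exact, and the lower limit of its counting interval was 3.28-fold. In FPKM, GFI1 stood at 9.69 in the library labelled deleted and 3.69 in wild type. GFI1B stood at 1.48 FPKM in the library labelled deleted, where it made up 13.2% of the FPKM sum of the pair, and 3 counts in wild type would correspond to 0.320 FPKM. MYB, gene 4602 on chromosome 6, had 93 counts in the library labelled deleted and 49 in wild type, a ratio of 1.86-fold (1.32 to 2.71), with levels of 5.24 and 2.82 FPKM.

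**Figure D1:**
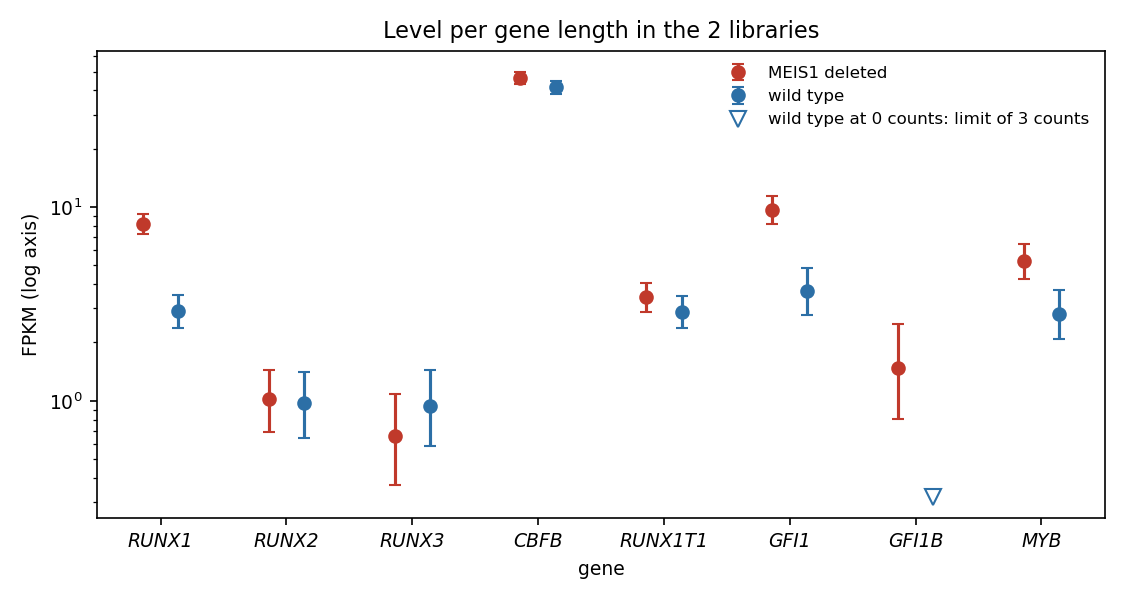
Level of each member in FPKM on a log axis, with MEIS1 deleted in red and wild type in blue. Bars are exact 95% Poisson intervals of the count and the open triangle is the limit of 3 counts for GFI1B, which had no count in wild type. RUNX1, GFI1, GFI1B and MYB are separated between the libraries, while CBFB stands near 46.4 and 41.6 FPKM.

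The levels of the members were ordered by FPKM in each library. In the library labelled deleted it ran CBFB, GFI1, RUNX1, MYB, RUNX1T1, GFI1B, RUNX2 and RUNX3 from high to low. Counting intervals overlapped there between GFI1 (8.15 to 11.4 FPKM) and RUNX1 (7.24 to 9.25 FPKM), and among GFI1B (0.809 to 2.48 FPKM), RUNX2 (0.693 to 1.45 FPKM) and RUNX3 (0.369 to 1.09 FPKM). MYB (4.23 to 6.42 FPKM) lay below RUNX1 and above RUNX1T1 (2.88 to 4.06 FPKM) without overlap. In wild type GFI1, RUNX1, RUNX1T1 and MYB could not be ordered, since their levels lay between 2.82 and 3.69 FPKM and their intervals overlapped. RUNX2 and RUNX3, at 0.97 and 0.94 FPKM, had overlapping intervals in wild type too.

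**Figure D2:**
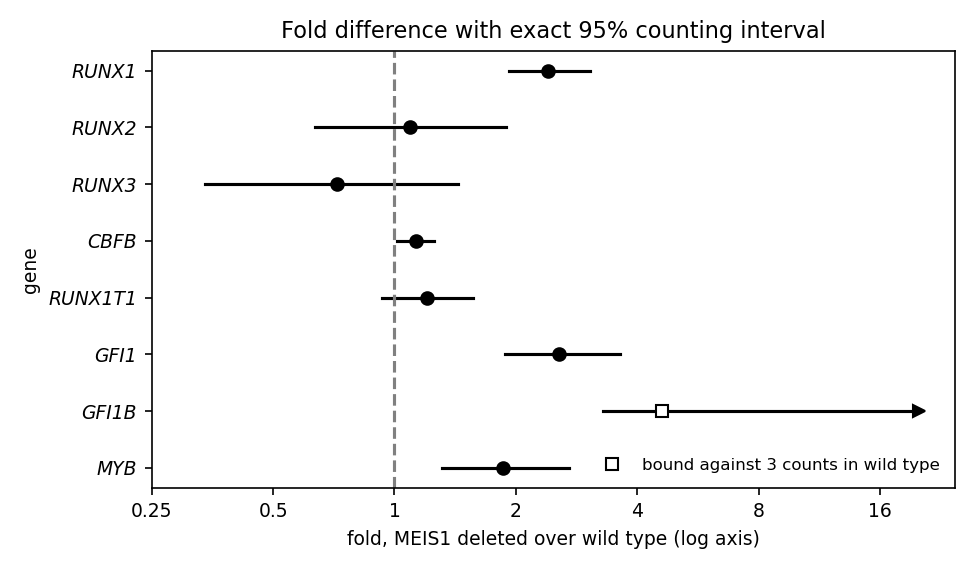
Fold of each member on a log axis, the library labelled MEIS1 deleted over wild type, with the exact 95% counting interval as a line and the dashed line at 1. The intervals of RUNX1, GFI1, GFI1B, MYB and CBFB lie above 1, and the square for GFI1B is its bound of 4.62 against 3 counts.

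The library labelled deleted also differed in the deposited length of RUNX1. In the column layout of RSEM, the tool named in the submitters' processing notes, the length of a gene with several transcripts is a mean weighted by the estimated share of each transcript. For RUNX1, with 3 transcripts listed, it was 6079 bases in the library labelled deleted and 7177 in wild type, a difference of -15.3%. Among 4776 genes with several transcripts and at least 50 counts in both libraries, 2.11% differed by 10% or more and 0.628%, which is 30 genes, differed at least as much as RUNX1. The median gene differed 1.0045-fold. Because FPKM divides by this length, the plain FPKM ratio of RUNX1 was 2.83-fold where the count ratio was 2.40-fold. The lengths of RUNX2, on few counts, were 5720 and 5487 bases, GFI1 had 2709 and 2760 bases, MYB 3345 and 3332, CBFB 3165 and 3157, and RUNX3 4270 in both, the library labelled deleted first in each pair.

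The 3 RUNX1 transcripts in the files are those named RUNX1a, RUNX1b and RUNX1c. RUNX1c starts at a distal promoter, RUNX1a and RUNX1b start at a proximal promoter inside the gene, and RUNX1a ends early and lacks the activation domain. GENCODE 29 (GRCh38, minus strand of chromosome 21) gives them as 2720 bases for RUNX1a, 7274 for RUNX1b and 5967 for RUNX1c, with coding starts at position 34887112 for RUNX1a and RUNX1b and at 35048899 for RUNX1c. The first 60 coding bases are shown because they tell the products of the 2 promoters apart, with the start codon in capitals. A single gene-level count does not show which of these starts the reads came from.
RUNX1c: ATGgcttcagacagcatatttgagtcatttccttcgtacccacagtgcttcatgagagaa
RUNX1b: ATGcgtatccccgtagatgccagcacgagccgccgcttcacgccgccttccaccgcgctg

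**Figure D3:**
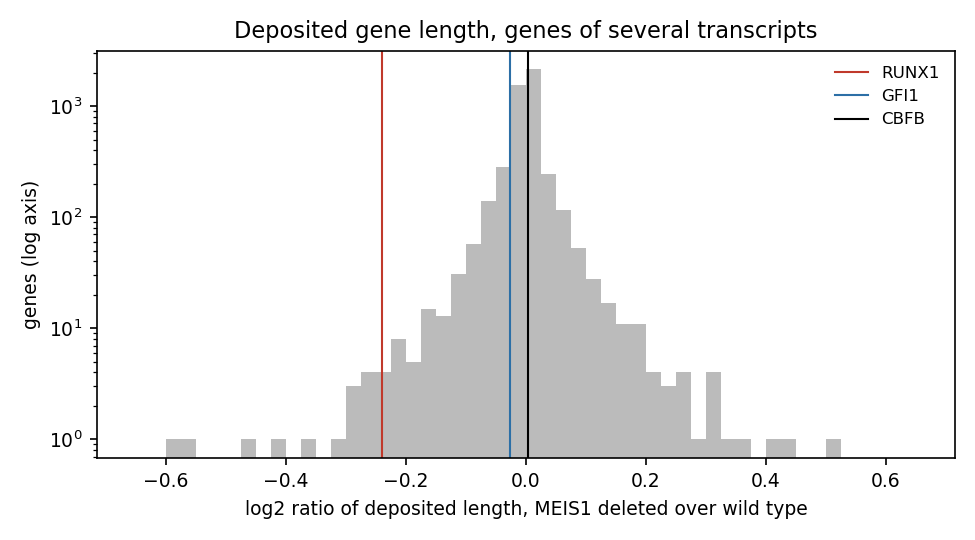
Number of genes (log axis) by log2 ratio of deposited length, the library labelled MEIS1 deleted over wild type, for 4776 genes with several transcripts. RUNX1 lies in the lower tail, while GFI1 and CBFB lie near 0.

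Promoter windows of the members were read from RefSeq (GRCh38.p14), 250 bases before to 50 after a start site. The search covered 11 windows for 6 of the 8 members, and RUNX1 is represented by its proximal promoter. No window of CBFB or RUNX1T1 was searched, so the members' counts below do not cover these genes. The letters searched, on both strands, were TGTGGT and TGCGGT for RUNX factors, GATAA for GATA factors, CCGGAA for ETS factors and AAATCA for GFI1 and GFI1B. Of all 35116 windows, 19.6% held the RUNX letters, 22.7% the GATA letters, 17.2% the ETS letters and 13.2% the GFI1 letters. Of the members' 11 windows, 3 held the RUNX letters, 1 the GATA, 3 the ETS and 2 the GFI1 letters, and the MYB window held none of them. The 3 windows with RUNX letters belonged to GFI1, RUNX2 and RUNX3, 1 each, so the letters also occurred beside members whose intervals included 1. One window each is shown for RUNX1, GFI1 and GFI1B, picked after the matches were seen, with matches in capitals: ETS letters in RUNX1, a RUNX match in GFI1, and a GATA then a GFI1 match in GFI1B. A match describes the letters only and does not show binding.
RUNX1, chr21:34888650-34888949, minus strand: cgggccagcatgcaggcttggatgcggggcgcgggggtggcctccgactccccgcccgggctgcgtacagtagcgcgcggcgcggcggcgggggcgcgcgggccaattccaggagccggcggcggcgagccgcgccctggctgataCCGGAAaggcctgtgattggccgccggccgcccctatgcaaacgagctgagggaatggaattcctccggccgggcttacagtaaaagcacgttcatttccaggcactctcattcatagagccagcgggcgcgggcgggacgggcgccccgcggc
GFI1, chr1:92486050-92486349, minus strand: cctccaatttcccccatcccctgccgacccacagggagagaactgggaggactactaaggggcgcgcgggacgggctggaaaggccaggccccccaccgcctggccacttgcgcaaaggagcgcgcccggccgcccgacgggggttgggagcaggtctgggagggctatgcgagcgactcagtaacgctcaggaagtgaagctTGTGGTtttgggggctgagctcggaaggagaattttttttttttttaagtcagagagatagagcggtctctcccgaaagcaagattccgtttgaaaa
GFI1B, chr9:132978444-132978743, plus strand: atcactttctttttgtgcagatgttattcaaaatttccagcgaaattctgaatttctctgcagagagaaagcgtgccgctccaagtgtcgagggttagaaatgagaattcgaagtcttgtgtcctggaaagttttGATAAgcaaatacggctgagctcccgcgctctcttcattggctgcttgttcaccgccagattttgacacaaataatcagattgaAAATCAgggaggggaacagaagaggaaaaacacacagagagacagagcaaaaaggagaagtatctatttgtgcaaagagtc

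The RUNX2 window around its distal start held 5 RUNX matches and the distal RUNX3 window 2. Both held the same run of 18 bases with 2 of these matches, which carries the RUNX letters on the opposite strand, at chr6:45328344-45328361 (plus strand) for RUNX2 and chr1:24965126-24965143 (minus strand) for RUNX3.
Shared run: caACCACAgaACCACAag
The ratios of RUNX2 and RUNX3 between the libraries had intervals that included 1.

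Co-factors of RUNX proteins were mostly slightly lower or without a detected difference. Among the 21 measured there were 2 higher and 8 lower genes and 11 whose interval included 1, with a median log2 ratio of -0.13 beside a median of 0.0032 over all genes compared. TLE1, a Groucho co-repressor, had 147 counts in the library labelled deleted and 213 in wild type, 1.46-fold lower (1.18 to 1.82). The acetyltransferase gene EP300, a co-activator of RUNX1 and MYB, had 1315 and 1646 counts in the same order and was 1.26-fold lower (1.18 to 1.36). Among relatives of RUNX1T1, CBFA2T2 was 1.33-fold lower (1.16 to 1.54), whereas CBFA2T3, a partner of the TAL1 complex in blood, was 2.52-fold higher (1.25 to 6.19) on 27 and 10 counts. CBFA2T3 lay below the 50 counts set for named genes and was chosen after its values were seen. WWTR1 (TAZ), which together with YAP1 carries Hippo signals to transcription factors, was 1.23-fold higher (1.06 to 1.43). YAP1, given because it carries the same signals, went the other way with 2011 counts in the library labelled deleted and 2354 in wild type, 1.18-fold lower (1.11 to 1.26).

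The co-repressors that GFI1 and GFI1B recruit through their SNAG domain were well expressed in both libraries. Among the 14 measured, 1 was higher and 4 were lower, and for 9 the interval included 1 (median log2 ratio -0.098). KDM1A (LSD1), the histone demethylase at the core of that complex, had 1554 counts in the library labelled deleted and 1405 in wild type, 1.09-fold higher (1.02 to 1.18). The scaffold gene RCOR2 was 1.48-fold lower (1.22 to 1.81), its relative RCOR3 1.26-fold lower (1.09 to 1.46), GSE1 1.23-fold lower (1.12 to 1.36) and HMG20B 1.3045-fold lower (1.04 to 1.65). RCOR1, the CoREST scaffold, had 472 and 479 counts in the library labelled deleted and in wild type, a ratio of 0.975 (0.857 to 1.11). KDM1A and RCOR1 are given for their place in the complex and were chosen after their values were seen.

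Relatives and co-factors of MYB showed no shared direction. Among the 11 measured, 1 was higher and 3 were lower, and for 7 the interval included 1 (median log2 ratio -0.060). TAF12, a subunit of TFIID and SAGA that MYB binds in leukaemia cells, was 1.33-fold higher (1.02 to 1.74) on 136 counts in the library labelled deleted and 101 in wild type, and CREBBP was 1.18-fold lower (1.08 to 1.29). FBXW7, part of a ubiquitin ligase that targets MYB, had a ratio of 1.22 and an interval that included 1. Of 9 measured MYB targets 3 were higher, 2 lower and 4 included 1 (median 0.00034). CD34, a surface protein of blood progenitors and endothelium, was 1.68-fold higher (1.45 to 1.95), with 497 counts in the library labelled deleted and 292 in wild type, and MYC 1.37-fold higher (1.19 to 1.57). KIT, the receptor for stem cell factor, went the other way with 115 and 177 counts, 1.55-fold lower (1.22 to 1.98), and CXCR4 was 1.39-fold lower (1.20 to 1.60).

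**Figure D4:**
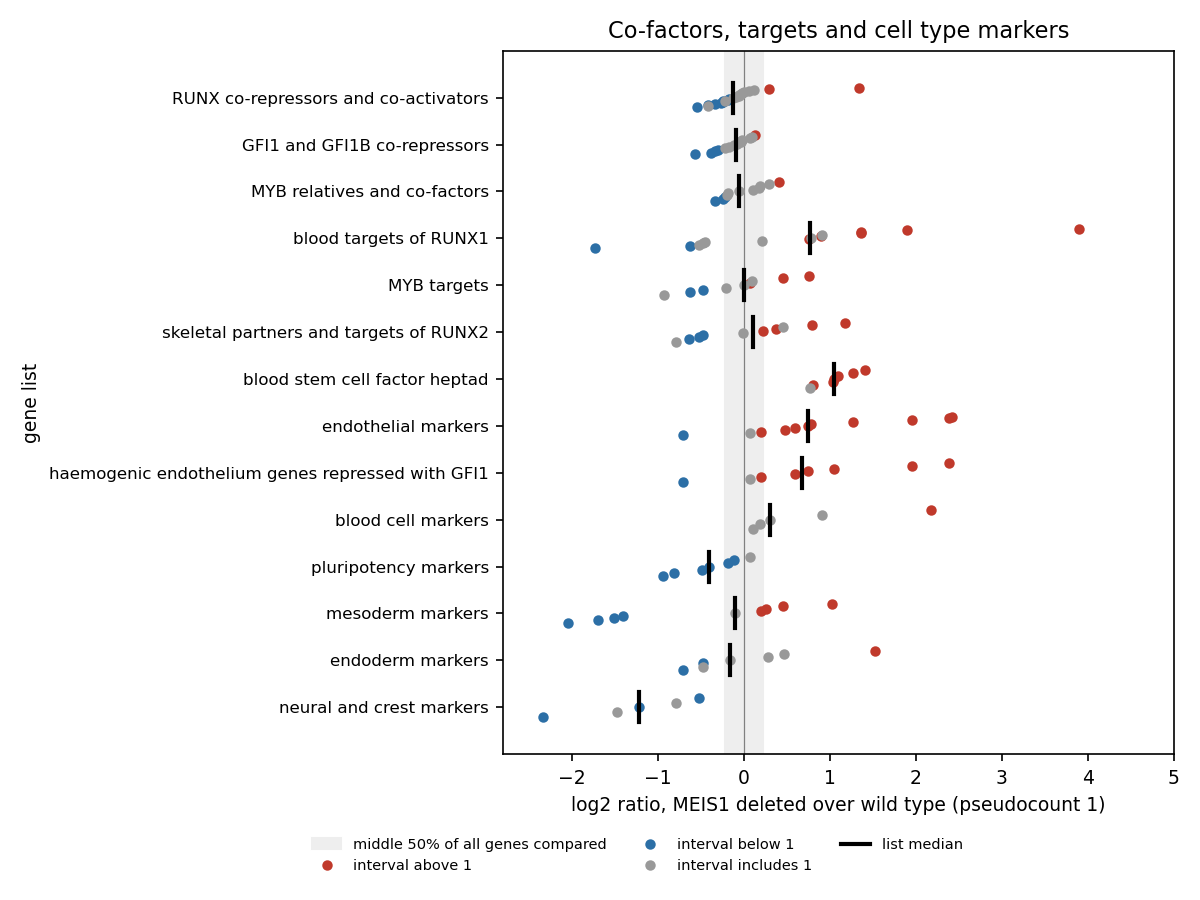
Log2 ratio, the library labelled MEIS1 deleted over wild type with a pseudocount of 1, of each gene compared in 14 lists. Points are red where the counting interval lies above 1, blue below and grey where it includes 1, black bars are list medians, and the grey band holds the middle 50% of all genes. The 7 heptad genes all lie right of the band, and co-repressor lists centre near 0. The point for GFI1B, with no count in wild type, depends on the pseudocount.

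Genes that RUNX1 is known to control in blood cells were higher in part, and the mature myeloid ones were scarcely expressed. Of its 21 genes, 5 had no row in the tables and 2 did not reach the minimum count. Of the 14 compared, 6 were higher, 2 lower and 6 included 1, with a median log2 ratio of 0.77. GFI1B at its bound still lay above this median, so the choice between bound and pseudocount could not change it. The list holds the members GFI1, GFI1B, MYB and RUNX3, and the first 3 were among its 6 higher genes. Without them 10 genes were compared, 3 higher and 2 lower, and the median was 0.48. GFI1B and CEBPA reached the minimum count only in the library labelled deleted, and CSF2RA only in wild type. HHEX, a homeobox factor of early blood and endothelium, had 105 counts in the library labelled deleted and 40 in wild type, 2.56-fold higher (1.79 to 3.84). CEBPA, a granulocyte factor named after its values were seen, had 14 and 3 counts, a ratio of 3.71 with a wide interval (1.29 to 25.1). The 2 lower genes were KIT, the stem cell factor receptor, at 115 and 177 counts, 1.55-fold lower (1.22 to 1.98), and CSF2RA, the receptor alpha chain for GM-CSF, at 9 and 32 counts, 3.33-fold lower (1.68 to 8.56), also named after its values were seen. MPO, ELANE, CSF2, IL3 and PF4 were listed in neither library. SPI1 (PU.1), the myeloid master factor, had 2 counts in the library labelled deleted and 1 in wild type.

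The heptad of factors that bind together in blood stem and progenitor cells was higher almost as a whole. Of its 7 genes 6 were higher, 0 lower and 1 included 1, and 5 were at least 2-fold higher, with a median log2 ratio of 1.05. Since RUNX1 belongs to it, the heptad is not separate evidence on RUNX1. GATA2 had 688 counts in the library labelled deleted and 256 in wild type, 2.65-fold higher (2.30 to 3.08), LMO2 343 and 158 counts, and ERG 195 and 93 counts, 2.06-fold higher (1.61 to 2.69). LYL1 was the gene whose interval included 1, with 35 and 20 counts (0.973 to 3.17). Genes near RUNX1 were sought only among 89 genes on the 14 lists, outside the 8 members, with at least 50 counts in 1 library. In log2(FPKM + 1) over the 2 libraries the nearest of these was ERG, at a Euclidean distance of 0.280. ERG had 7.44 FPKM in the library labelled deleted and 3.64 FPKM in wild type. HHEX (0.621) and PECAM1 (0.942) followed.

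Endothelial genes that GFI1 and GFI1B silence in mouse haemogenic endothelium were higher too, beside the higher GFI1 and GFI1B. Of 8 compared, 6 were higher, 1 lower and 1 included 1, with a median log2 ratio of 0.67. All of these 8 except ERG, a heptad gene, are also on the list of endothelial markers below, so these are not separate results. TIE1 had 115 counts in the library labelled deleted and 21 in wild type, 5.22-fold higher (3.38 to 9.09), CDH5 (VE-cadherin) 410 and 104 counts, 3.87-fold higher (3.14 to 4.89), and TEK 875 and 515 counts, 1.68-fold higher (1.51 to 1.88). SOX17, a factor of arterial endothelium and of endoderm, was 1.63-fold lower (1.41 to 1.90), with 285 and 461 counts.

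Skeletal genes linked to RUNX2 differed in both directions, beside low RUNX2 in both libraries. Of 10 compared, 4 were higher, 3 lower and 3 included 1 (median log2 ratio 0.10). COL1A1, a collagen of bone and many mesenchymal cells, was 1.73-fold higher (1.65 to 1.80), and SPP1 (osteopontin) 1.56-fold lower (1.39 to 1.76), ALPL 1.40-fold lower (1.24 to 1.59) and MSX2 1.44-fold lower (1.296 to 1.60). The bone genes BGLAP and IBSP were listed in neither library.

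Markers of other cell types differed beside the blood regulators. Endothelial markers had 9 of 11 higher and 1 lower, and their summed level was 599 FPKM in the library labelled deleted and 406 FPKM in wild type. Most of these sums came from FLT1, at 291 and 166 FPKM, and KDR, at 160 and 141 FPKM. PECAM1 was 5.35-fold higher (3.90 to 7.81), on counts of 226.26 and 40.52 that were not whole, and EGFL7 was 2.41-fold higher (1.90 to 3.11). Of 13 blood cell markers, 5 were compared, of which 1 was higher, 0 lower and 4 had intervals that reached across 1, with summed levels of 49.2 FPKM in the library labelled deleted and 28.6 FPKM in wild type. LAPTM5 gave 21.5 and 4.73 FPKM of these sums, and without it they were 27.8 and 23.9 FPKM. The globin genes HBZ, HBG1 and HBG2 were listed in neither library and PTPRC (CD45), the pan-leukocyte marker, had 7 and 6 counts. HBE1, the embryonic globin, had 2 counts in the library labelled deleted and 0 in wild type, VAV1 5 and 0, and WAS 6 and 1, all below the minimum. LAPTM5 was 4.51-fold higher (3.40 to 6.23), while SPN (CD43), at 118 and 103 counts, and LCP1, at 387 and 356 counts, had intervals that included 1.

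Markers of earlier and alternative fates were mostly lower or mixed. Pluripotency markers had 6 of 7 lower and 0 higher, with summed levels of 636 FPKM in the library labelled deleted and 788 FPKM in wild type, and POU5F1 (OCT4) was 1.76-fold lower (1.59 to 1.95) and NANOG 1.92-fold lower (1.65 to 2.24). Mesoderm markers had 4 of 9 higher, and FOXF1, at 2.04-fold (1.58 to 2.68), was the only one at least 2-fold higher. The 4 lower, all at least 2-fold, were EOMES at 4.14-fold lower (3.57 to 4.85), TBXT, MIXL1 and TBX6. MIXL1 and TBX6 rested on at most 30 counts. The mesoderm sums were 547 and 533 FPKM, of which HAND1 gave 301 and 254 FPKM and KDR 160 and 141 FPKM. Endoderm markers had 1 of 7 higher, APOA1 at 2.87-fold (2.25 to 3.77), and 2 lower, SOX17 and CXCR4. Their sums were 134 and 130 FPKM, of which APOA1 alone gave 51.9 FPKM in the library labelled deleted and 18.1 FPKM in wild type. The near-equal sums therefore rest on APOA1. Neural and crest markers had 3 of 5 lower and 0 higher, with sums of 24.2 and 43.7 FPKM. How far these marker differences took part in the differences of RUNX1, GFI1, GFI1B and MYB was not tested.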

How the data were processed

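RNA was sequenced from 1 library per genotype, made from 2 µg of total RNA with a TruSeq kit per the labels. The deposited expected counts are estimated counts per gene that need not be whole, and the deposited FPKM values are scaled for length and depth, both per the file headers. BWA, Bowtie, RSEM and hg19 are named in the submitters' processing notes without roles or versions, and the series text also names TopHat and Cufflinks. Which step made the tables, and whether strand was used, is not given in the sources used here.

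Absent genes were taken as 0 and counts rounded. Of 18518 gene numbers, 18413 matched a RefSeq symbol. Counts were scaled by TMM (edgeR 4.0.16, R 4.3.3), whose sizes differed 1.01-fold. Log2 ratios and folds used a pseudocount of 1, and intervals are exact Clopper-Pearson 95% intervals conditional on the summed count (scipy 1.17.1). They and the limit of 3 counts cover counting error only, since PCR copies are not independent molecules. Genes with 10 counts or more in 1 library were compared. No model was fitted. The computation was tested on simulated data. Named genes were the members, MEIS1, up to 4 genes per list with the largest ratios among those with 50 counts or more, and the 3 genes on the lists nearest to RUNX1. Members and lists were chosen with earlier results of these data known, and 2 further genes first put on the blood cell list were left out of it and are not reported here. RUNX1-IT1, inside RUNX1, had 9 counts in the library labelled deleted and 5 in wild type, which cannot be told apart from RUNX1 reads without strand. SUPT3H, which overlaps RUNX2, had 79 and 73 counts, with the same limit.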

Additional observations from a re-analysis of the deposited data

How the results depend on the processing

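No paired analysis was possible because each genotype had 1 library. Of 56 alternative values for the members, 55 stayed within the member's main counting interval. The exception was GFI1B from FPKM with a pseudocount of 1, a log2 ratio of 1.31, where the pseudocount outweighs the low level. The calls of all 8 members were the same under TMM, DESeq2, upper quartile and total-count scaling, and the lower limit for CBFB lay between 1.01 and 1.03. Of 129 alternative list medians 128 stayed within a range between 2 ranked genes of the list around the reported median. The exception was the neural and crest median, -0.51 from FPKM with a pseudocount of 1. For lists with at most 8 genes compared that range ran from the lowest to the highest gene. Staying within it was then nearly certain and does not show that a median was stable. Under the alternative settings 3 of 14 medians changed sign. The skeletal median of 0.10 was -0.015 with a minimum of 50 counts and 0.297 with a minimum of 1 count, and the mesoderm median of -0.10 was 0.19 and -0.75 under the same settings. The median of MYB targets, 0.00034, ran between -0.010 and 0.034. Chosen after seeing the data, leaving out the members gave a median of 0.48 for RUNX1 targets and 1.04 for the heptad, and leaving out LAPTM5 gave 0.24 for blood cell markers. The 417 genes at least 2-fold higher and 424 lower were 182 and 183 from FPKM with a pseudocount of 1, 161 and 171 with a minimum of 50 counts, a smaller set of genes. A threshold of 1.5-fold gave 827 and 893, and one of 4-fold gave 111 and 81. RUNX2, RUNX3 and GFI1B rest on at most 31 counts, so differences below about the width of their intervals were not detectable at this depth.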

Other observations

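The deposited RUNX1 lengths set bounds on the share of RUNX1b, the longest of the 3 transcripts, if the authors' transcripts had the GENCODE 29 lengths. Under that condition RUNX1b made up between 8.56% and 73.8% of RUNX1 transcripts in the library labelled MEIS1 deleted and between 92.6% and 97.9% in wild type. With each length 50 bases longer, an alternative chosen after seeing the data, the bounds were 4.73% to 72.7% in the library labelled deleted and 88.7% to 96.8% in wild type. With each length 50 bases shorter they were 12.4% to 74.9% and 96.4% to 99.0%. Of 10322 genes with 1 transcript, 56.6% had a deposited length within 50 bases of GENCODE's, with a median absolute difference of 34 bases, so the lengths may not match for RUNX1. The bounds carry no counting error, and the estimate of shares rested on 266 reads in the library labelled deleted and 109 in wild type.

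SP7 (osterix), an osteoblast factor downstream of RUNX2, had 40 counts in the library labelled deleted and 17 in wild type, a ratio of 2.25 (1.29 to 4.38), and was chosen after its values were seen.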
